A study of Mus musculus with 6 samples.

Results

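The 10 genes described here belong to the BCL2 family, the proteins that decide whether the outer mitochondrial membrane stays intact or is opened during apoptosis. They were taken by symbol from a count table of 31017 genes, and all 10 passed the filter on low counts that left 14268 genes for testing. They comprise 4 antiapoptotic genes (Bcl2, Bcl2l1, Mcl1 and Bcl2a1b), 2 effectors (Bax and Bak1) and 4 genes of the BH3-only class (Bid, Bbc3, Pmaip1 and Bcl2l11). Bcl2l11, which encodes BIM, was 4.49-fold higher in RTF1-deficient Th17 cells than in control cells, and Bcl2 fell to 53.3% of its control level.

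RNA was sequenced from mouse Th17 cells, the interleukin 17-secreting class of helper T cell, after differentiation in culture. There were 3 control libraries (genotype WT) and 3 libraries deficient in RTF1 (genotype KO), a partner of the PAF1 complex that travels with RNA polymerase II and promotes ubiquitination of histone H2B. Strain, allele, age and the means of deletion are not given in the sources used here, nor is it stated whether the replicates came from separate animals, so p-values measure only the spread between these libraries. The study's title asks how RTF1 controls Th17 differentiation through H2B monoubiquitination.

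In the mitochondrial pathway of apoptosis, the effector proteins BAX and BAK form pores in the outer mitochondrial membrane and release cytochrome c, which starts the caspase cascade. BCL2, BCL-XL (from Bcl2l1), MCL1 and A1 (from the Bcl2a1 genes) hold them in check, and the BH3-only proteins set this balance by binding the antiapoptotic proteins, and in part by engaging the effectors directly. In T cells BIM is known for the deletion of self-reactive thymocytes and for the loss of activated cells when cytokines are withdrawn, while BCL2 and MCL1 sustain survival downstream of cytokine receptors.

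The shallowest library, control replicate 1, had 16489813 counts and the deepest, control replicate 2, had 51271226. Values are given as CPM, the usual depth-scaled count, here with TMM factors, and those of single libraries are listed by replicate number, 1 to 3. A gene was called when its adjusted p in edgeR's quasi-likelihood test was under 0.05. Rtf1 held 94.0, 91.2 and 88.3 CPM in the controls and 45.3, 30.4 and 26.2 CPM in KO, so 37.2% of the control level remained in the libraries labelled KO. The 7 T helper and Th17 markers summed to 2494 to 3053 CPM in control and 1564 to 2024 CPM in KO. Within that list Cd3e and Cd3g were called higher and Cd4, Il17a and Il17f lower. The 5 CD8 and NK markers summed to 6.93 to 10.5 and 6.49 to 11.8 CPM, with Ncr1 and Klrb1c at 0 counts throughout and Eomes called higher (0.0991 to 1.55 CPM in the means), and the 4 B cell markers to at most 2.35 CPM in any library. The 5 myeloid markers were low but higher in KO, 0.289 to 0.618 CPM in control and 1.12 to 3.11 CPM in KO; of these Csf1r was the only one tested and was called, and the part of the myeloid and T helper markers in the results below was not tested. The 3 erythroid and the 4 fibroblast markers summed to at most 0.797 CPM in any library. In these bulk libraries a change in the RNA of each cell and a change in the share of cells that hold it cannot be told apart. Replicate 3 of each group was male by its Y-linked counts (11376 and 5147 against at most 3 in each of the others), so values for numbers 1 and 2 alone, and for number 3 alone, are given beside the members.

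Of the 10 members, 5 were called, 3 higher (Bcl2l11, Pmaip1 and Bak1) and 2 lower (Bcl2 and Bid). Over all tested genes 46.1% were called, 23.2% higher and 22.9% lower, so the share of members called was close to that of the transcriptome. In 6 members the KO libraries lay entirely on one side of the control libraries, against 57.9% of all tested genes. A call with at least a 2-fold change was made for 2 members, Bcl2l11 and Pmaip1, and for 22.3% of all tested genes. The median log2 fold change of the members was 0.38, beside 0.013 over all tested genes. Left without KO replicate 2, the fit called 3 members and no longer called Bcl2 and Bid. Left without control replicate 3 it called 7, adding Mcl1 and Bbc3, and scaling by library size alone also gave 7, adding Mcl1 and Bcl2a1b.

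**Figure D1:**
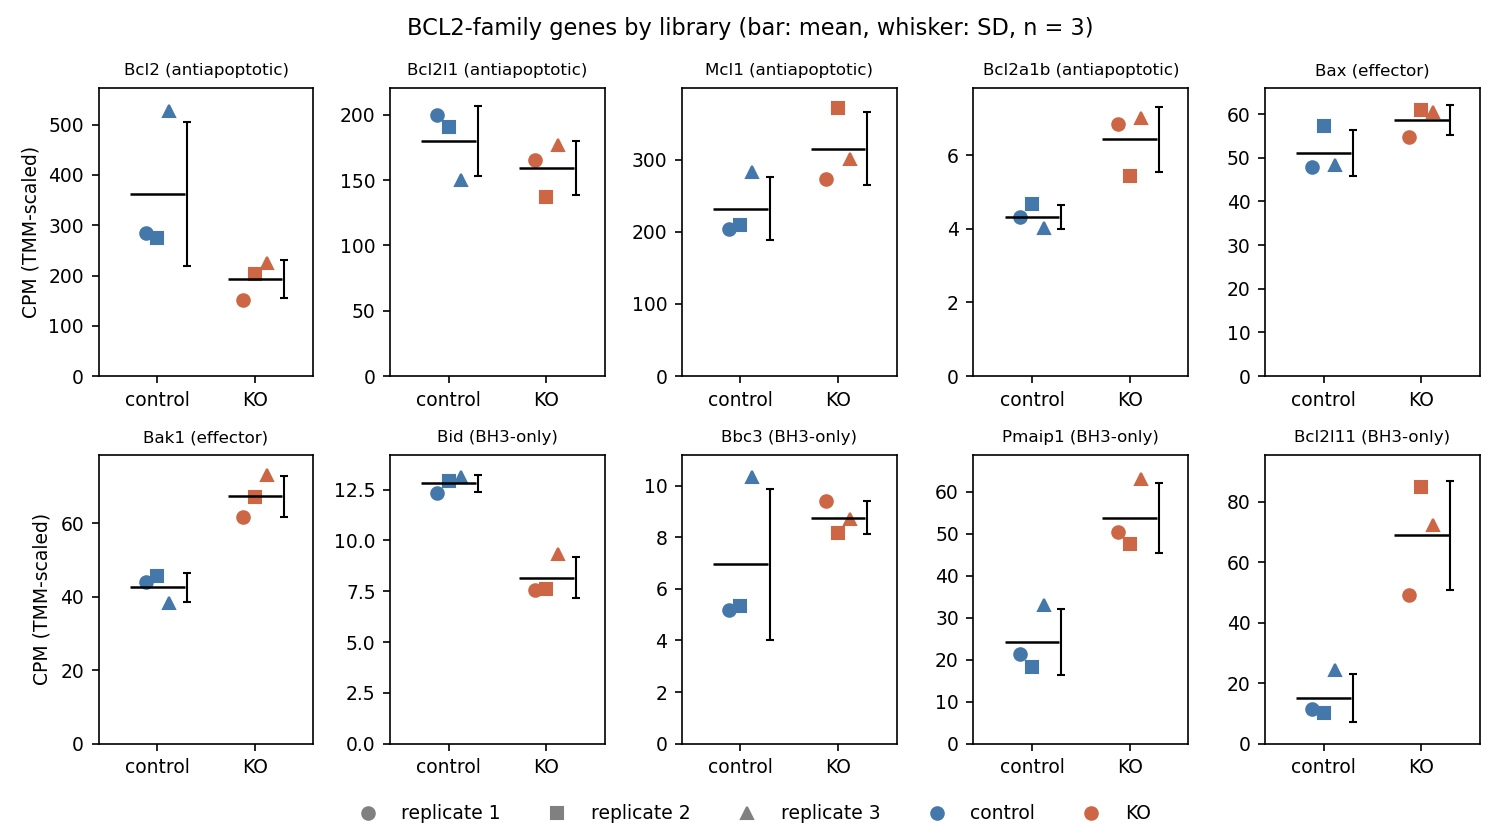
TMM-scaled CPM of the 10 members in each library, 1 panel a gene, with control in blue, KO in orange and a marker shape for each replicate number; black bars are means and whiskers SD over 3 libraries. The groups separate for Bcl2, Bcl2a1b, Bak1, Bid, Pmaip1 and Bcl2l11, and control replicate 3 stands above the other control libraries for Bcl2, Mcl1, Bbc3, Pmaip1 and Bcl2l11.

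Bcl2l11 and Bcl2 were the members with the largest rise and the largest fall, and the 250 bases before their annotated starts are shown for that reason. Sequences are from RefSeq on GRCm38.p6, written 5′ to 3′ on the gene's strand, and capitals mark matches on either strand to 4 motifs: the forkhead core GTAAACA, the E-box CACGTG, the GC box GGGCGG and the CCAAT box CCAAT.
Bcl2l11, chr2:128125788-128126037, plus strand: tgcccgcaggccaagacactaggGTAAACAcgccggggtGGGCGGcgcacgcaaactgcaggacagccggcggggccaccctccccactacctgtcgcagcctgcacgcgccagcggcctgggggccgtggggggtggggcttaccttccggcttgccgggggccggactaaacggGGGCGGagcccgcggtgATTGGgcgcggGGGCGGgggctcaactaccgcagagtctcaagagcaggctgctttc
Bcl2, chr1:106714291-106714540, minus strand: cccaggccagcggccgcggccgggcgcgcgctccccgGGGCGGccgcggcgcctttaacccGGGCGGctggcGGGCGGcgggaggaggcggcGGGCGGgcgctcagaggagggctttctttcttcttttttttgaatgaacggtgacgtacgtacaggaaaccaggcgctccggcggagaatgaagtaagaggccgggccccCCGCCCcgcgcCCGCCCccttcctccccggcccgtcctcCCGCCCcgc
Both windows are rich in GC, 72% for Bcl2l11 and 74.8% for Bcl2. The Bcl2l11 window held 1 forkhead match, 3 GC boxes and 1 CCAAT box, and the Bcl2 window 7 GC boxes and none of the other 3 motifs. Another Bcl2l11 start, with the window chr2:128127325-128127574, had no forkhead match, 2 GC boxes and 2 CCAAT boxes. Windows were held for 9 of the 10 members, 14 in all since some genes have several starts. Of these 14 windows, 10 had a GC box, and 2, the Bcl2l11 window above and 1 of the Bbc3 windows, had the forkhead letters. Among all 32851 windows of the same length 3.17% had a forkhead match, 6.02% an E-box, 32.7% a GC box and 33.8% a CCAAT box. No matches overlapped in the windows shown. A match is a description of letters and shows no binding.

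Among the 4 BH3-only members, Bcl2l11 changed most. It lies on chromosome 2 (GRCm38, 128126038 to 128162547, plus strand). The controls gave 11.4, 9.97 and 24.4 CPM, and the KO libraries 49.3, 84.9 and 72.3 CPM. Every KO library lay above every control library, and control replicate 3, the highest of its group, was still more than 2 times below the lowest KO library. The means were 15.2 ± 7.93 and 68.8 ± 18.0 CPM (SD, n = 3), and the log2 fold change was 2.17 (SE 0.347, 95% interval 1.38 to 2.95, edgeR adjusted p = 0.00158). A larger absolute log2 fold change was found for 5.56% of all tested genes. For the other called members this share was 20.7% (Pmaip1), 28.9% (Bcl2), 41.5% (Bak1) and 42.0% (Bid). With replicate numbers 1 and 2 alone the log2 fold change of Bcl2l11 was 2.66 (edgeR adjusted p = 2.42e-05), and the number 3 pair alone gave a log2 ratio of 1.57. The counts are of the whole gene and do not separate the BIM isoforms that arise by splicing.

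Pmaip1 encodes NOXA, a BH3-only protein that binds MCL1 and A1 and is a classic p53 target. Its levels were 21.3, 18.2 and 33.2 CPM in the controls, and 50.4, 47.7 and 63.2 CPM in KO. The groups did not overlap, and replicate 3 was the highest library of each group. Pmaip1 rose with a log2 fold change of 1.15 (SE 0.227, 95% interval 0.63 to 1.66, edgeR adjusted p = 0.00393), 2.21-fold. The value was 1.31 with replicate numbers 1 and 2 alone and the pair of number 3 gave 0.93.

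Bid encodes the BH3-only protein that caspase 8 cleaves, linking death receptors to mitochondria. It was lower in KO, with 12.3, 12.9 and 13.1 CPM in the controls, and 7.55, 7.61 and 9.35 CPM in KO. The control libraries were nearly level and no KO library reached them. The log2 fold change was −0.65 (SE 0.170, 95% interval −1.04 to −0.27, edgeR adjusted p = 0.0133). The call was lost without KO replicate 2 (−0.60, edgeR adjusted p = 0.0611). Of the exonic bases of Bid 17.7% overlap Bcl2l13 on the opposite strand, and the strand setting of the counting is not given in the sources used here; Bcl2l13 itself held a mean of 66.2 CPM in control and 65.0 in KO. Numbers 1 and 2 alone gave −0.74, and the number 3 pair −0.49.

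Bbc3 encodes PUMA, a BH3-only protein that binds all antiapoptotic members and is, like NOXA, a p53 target. It did not pass the test. The controls gave 5.17, 5.35 and 10.3 CPM and the KO libraries 9.42, 8.17 and 8.69 CPM. The KO libraries lay close together, between the first pair of control libraries and control replicate 3, so the groups overlapped because of that 1 library. The log2 fold change was 0.32 (SE 0.287, 95% interval −0.33 to 0.98, edgeR adjusted p = 0.379). Without control replicate 3 it was 0.67 and called (edgeR adjusted p = 0.0255), and with numbers 1 and 2 alone 0.74 (edgeR adjusted p = 0.0306). In the number 3 pair the direction was opposite, with a log2 ratio of −0.25.

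The 2 effector genes gave different calls. Bak1, on chromosome 17 (27019810 to 27029009, minus strand), held 44.1, 45.6 and 38.2 CPM in the controls, and 61.9, 67.2 and 73.2 CPM in KO. All KO libraries were above all control libraries, with little spread inside each group. Bak1 rose with a log2 fold change of 0.66 (SE 0.123, 95% interval 0.38 to 0.94, edgeR adjusted p = 0.00305), 1.58-fold. It was 0.52 with numbers 1 and 2 alone and 0.94 in the number 3 pair. Ggnbp1 on the opposite strand overlaps 25.5% of the exonic bases of Bak1. Ggnbp1 was itself low, at a mean of 2.09 CPM in control and 3.84 CPM in KO, and was also called higher (0.88, edgeR adjusted p = 0.046).

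Bax held 47.9, 57.3 and 48.3 CPM in the controls, and 54.7, 60.9 and 60.4 CPM in KO. The ranges overlapped, since control replicate 2 exceeded KO replicate 1. The log2 fold change was 0.20 (SE 0.120, 95% interval −0.076 to 0.47, edgeR adjusted p = 0.209), an interval that does not show equal levels but leaves out a change of the size estimated for Bak1. Bax was not called under any of the 14 alternatives. The difference between the changes of Bax and Bak1 was not tested.

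Among the 4 antiapoptotic members, Bcl2 alone was called. It spans 106538178 to 106714274 on the minus strand of chromosome 1. The controls gave 284, 275 and 527 CPM, and the KO libraries 152, 203 and 224 CPM. Control replicate 3 was nearly double the other control libraries, and every KO library lay below all of them. Bcl2 fell from 362 ± 143 to 193 ± 37.3 CPM (SD, n = 3), and the log2 fold change was −0.91 (SE 0.262, 95% interval −1.50 to −0.31, edgeR adjusted p = 0.0204). Without control replicate 3 the change was smaller but called (−0.59, edgeR adjusted p = 0.0157), whereas without KO replicate 1 (−0.77, edgeR adjusted p = 0.0632) or KO replicate 2 (−0.94, edgeR adjusted p = 0.0587) the call was lost. Numbers 1 and 2 alone gave −0.66 (edgeR adjusted p = 0.00783), and the number 3 pair gave −1.24.

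Mcl1, whose short-lived protein is required for lymphocyte survival, did not pass the test. The controls gave 204, 210 and 282 CPM and the KO libraries 274, 372 and 300 CPM. The overlap came from control replicate 3, which exceeded KO replicate 1. The log2 fold change was 0.44 (SE 0.169, 95% interval 0.057 to 0.83, edgeR adjusted p = 0.0596). With the replicate number as a block Mcl1 was called (0.45, edgeR adjusted p = 0.0238), as it was without control replicate 3 (0.55, edgeR adjusted p = 0.0178), scaled by library size alone (0.53, edgeR adjusted p = 0.0306) and with numbers 1 and 2 alone (0.64, edgeR adjusted p = 0.0104). The number 3 pair alone gave 0.089. Without control replicate 1 the value was 0.29 (edgeR adjusted p = 0.251).

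Bcl2l1, whose main product BCL-XL guards activated lymphocytes, held 200.1, 191 and 150 CPM in the controls, and 165, 137 and 177 CPM in KO. The groups overlapped. The log2 fold change was −0.17 (SE 0.149, 95% interval −0.51 to 0.16, edgeR adjusted p = 0.362), so a fall larger than 0.51 on the log2 scale lies outside the interval. Numbers 1 and 2 alone gave −0.37 (edgeR adjusted p = 0.0553), whereas the number 3 pair gave 0.24. Without KO replicate 2 the value was −0.071.

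Bcl2a1b is 1 of several near-identical copies on chromosome 9 that encode A1, an NF-kB-induced antiapoptotic protein. The coding sequences of Bcl2a1a, Bcl2a1b and Bcl2a1d differ at 12 of 516 positions, and the 60-base stretch with the most differences, positions 1 to 60 from the start codon, is shown to make plain what a read has to span to tell them apart. Capitals mark the 6 positions at which the copies differ (GENCODE M21 transcripts).
Bcl2a1a: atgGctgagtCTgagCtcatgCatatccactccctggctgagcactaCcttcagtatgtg
Bcl2a1b: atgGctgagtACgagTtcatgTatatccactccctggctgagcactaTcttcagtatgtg
Bcl2a1d: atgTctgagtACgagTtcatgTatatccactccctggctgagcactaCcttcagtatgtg
Bcl2a1b and Bcl2a1d were 98.8% identical over the coding sequence, and 79.2% of the 50-base stretches in Bcl2a1b transcripts occur in another gene. The division of reads among the copies is therefore uncertain. Bcl2a1b held 4.32, 4.66 and 4.02 CPM in the controls, and 6.83, 5.42 and 7.02 CPM in KO. The groups did not overlap, but the test was not passed (log2 fold change 0.56, SE 0.223, edgeR adjusted p = 0.0649). It was 0.44 with numbers 1 and 2 alone and 0.81 in the number 3 pair.

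Summed over Bcl2a1a, Bcl2a1b and Bcl2a1d, the controls gave 18.2, 22.1 and 11.3 CPM and the KO libraries 29.9, 25.1 and 33.1 CPM. The summed row was higher in KO and called (log2 fold change 0.77, SE 0.238, edgeR adjusted p = 0.0270). Bcl2a1d made up most of the sum, with 13.6, 17.0 and 7.13 CPM in the controls, and 22.4, 19.4 and 24.96 CPM in KO. On its own Bcl2a1d was called (0.82, edgeR adjusted p = 0.0412), but of the 6 fits with 1 library removed only that without control replicate 2 kept the call, and the value was 0.47 without control replicate 3. Bcl2a1a was near the limit of detection, at 4 to 25 counts a library, and was not called (edgeR adjusted p = 0.238).

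**Figure D2:**
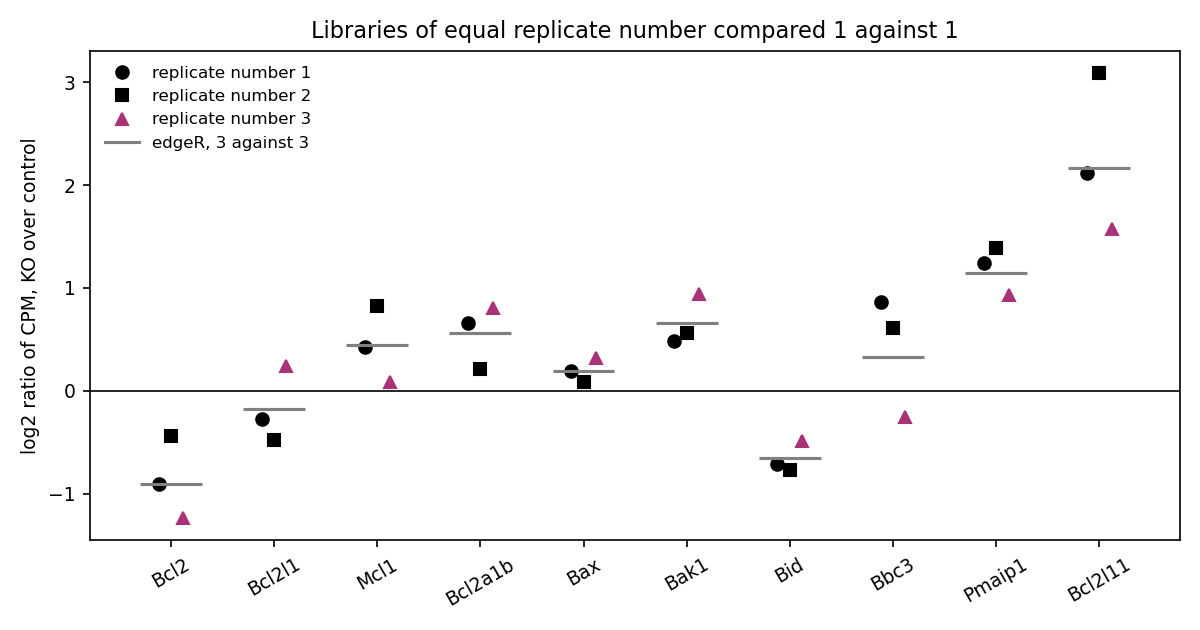
Log2 ratio of CPM, KO over control, for libraries of equal replicate number (black circles and squares for numbers 1 and 2, purple triangles for the male libraries of number 3), with the edgeR log2 fold change of all 6 libraries as a grey line. In 8 of the 10 members the 3 ratios have the same sign, and for Bcl2l1 and Bbc3 number 3 falls on the other side of 0. For the 6 members whose groups do not overlap, the same sign follows from that separation, which 57.9% of all tested genes also show. Among members with overlapping groups, Mcl1 and Bax have ratios of the same sign. The share of all tested genes with 3 ratios of the same sign was not computed.

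Divided by exonic length, CPM can be compared roughly between genes. The length is that of all annotated exons of a gene, not of the transcripts present in these cells. Other genes overlap 25.5% of the exonic bases of Bak1, 17.7% of Bid and 12.2% of Bax, so their levels are approximate too. In control, Mcl1 stood highest, at 59.7 to 82.6 CPM per kb, above every other member in all libraries. Bcl2 (29.99 to 57.6), Bcl2l1 (32.7 to 43.6) and Bax (30.4 to 36.3 CPM per kb) followed and did not differ beyond their spread. Bak1 came next at 15.9 to 18.9, then Pmaip1 at 6.66 to 12.1 and Bcl2a1b at 4.91 to 5.71 CPM per kb, a place that is uncertain because of its shared sequence and because 49.1% of its exonic bases overlap Gm29094. Bid (3.48 to 3.70), Bbc3 (2.43 to 4.87) and Bcl2l11 (1.24 to 3.03 CPM per kb) were the lowest, with the range of Bbc3 overlapping those of both others. Levels of the BH3-only genes in control were thus well under those of Mcl1, Bcl2 and Bcl2l1.

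In KO, Mcl1 was again highest, at 80.03 to 109 CPM per kb. Bax (34.7 to 38.6) and Bcl2l1 (29.8 to 38.5) overlapped, and Bak1 (25.7 to 30.4 CPM per kb) overlapped Bcl2l1. Bcl2 (16.6 to 24.5) and Pmaip1 (17.4 to 23.1 CPM per kb) occupied the same range, whereas in control the lowest Bcl2 library was more than 2 times the highest Pmaip1 library. Bcl2l11 moved from the tenth place to the seventh, at 6.14 to 10.6 CPM per kb, and overlapped Bcl2a1b (6.64 to 8.59). Bbc3 (3.85 to 4.43) and Bid (2.13 to 2.63 CPM per kb) were lowest.

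**Figure D3:**
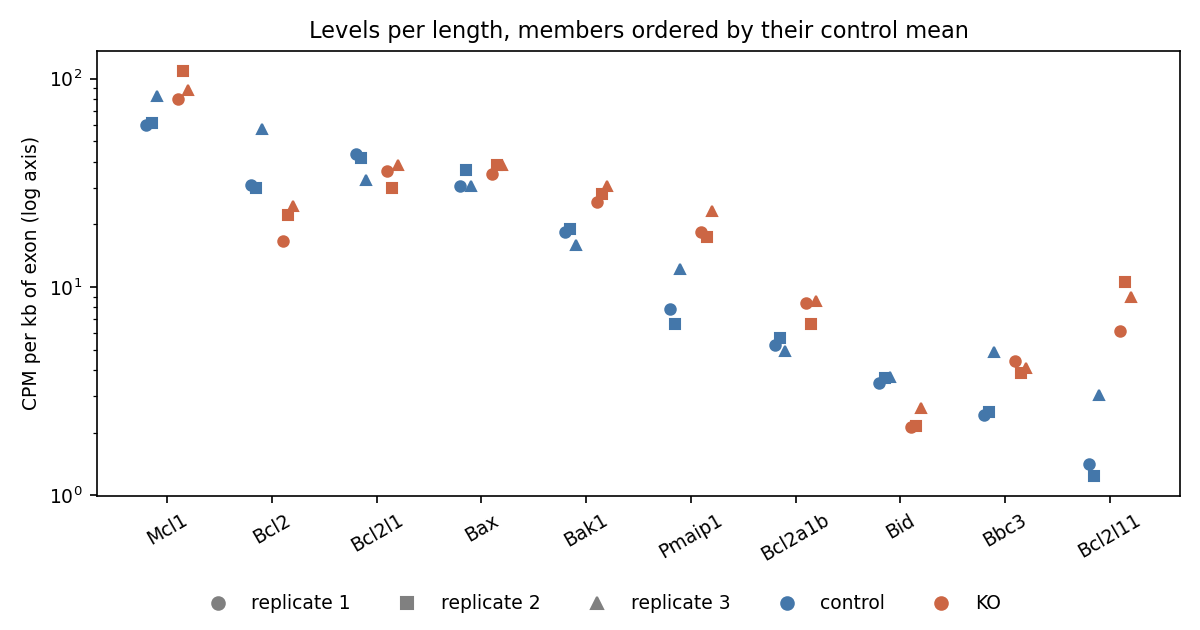
CPM per kb of exon (log axis) of the 10 members in each library, ordered by the control mean, with control in blue, KO in orange and a marker shape for each replicate number. Bcl2l11 rises from 1.24 to 3.03 in control to 6.14 to 10.6 in KO, and the ranges of Bcl2 and Pmaip1 overlap in KO but not in control.

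Ratios of members within a library do not depend on the scaling between libraries and are given as a description, with no test. The log2 ratio of Bcl2l11 to Bcl2 counts was −4.64, −4.78 and −4.44 in the controls, and −1.62, −1.26 and −1.63 in KO. The groups lay far apart, with a difference between means of 3.12 and SDs of 0.175 and 0.212 (n = 3). Since these members had the largest rise and the largest fall, this gap restates changes given above. Control replicate 3, high for both genes, did not stand apart in their ratio. For Bcl2l11 to Mcl1 the ratio was −4.17, −4.40 and −3.54 in control and −2.47, −2.13 and −2.05 in KO. These also did not overlap, with a difference between means of 1.81.

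For Bax to Bcl2 the log2 ratio was −2.57, −2.26 and −3.45 in control and −1.47, −1.74 and −1.89 in KO. The difference between means was 1.06, and 0.72 without control replicate 3. For Bbc3 to Mcl1 the ratio was −5.30, −5.30 and −4.77 in control and −4.86, −5.51 and −5.11 in KO, ranges that overlapped, with a difference between means of −0.036. That difference turned to 0.14 without control replicate 3 or without KO replicate 2.

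**Figure D4:**
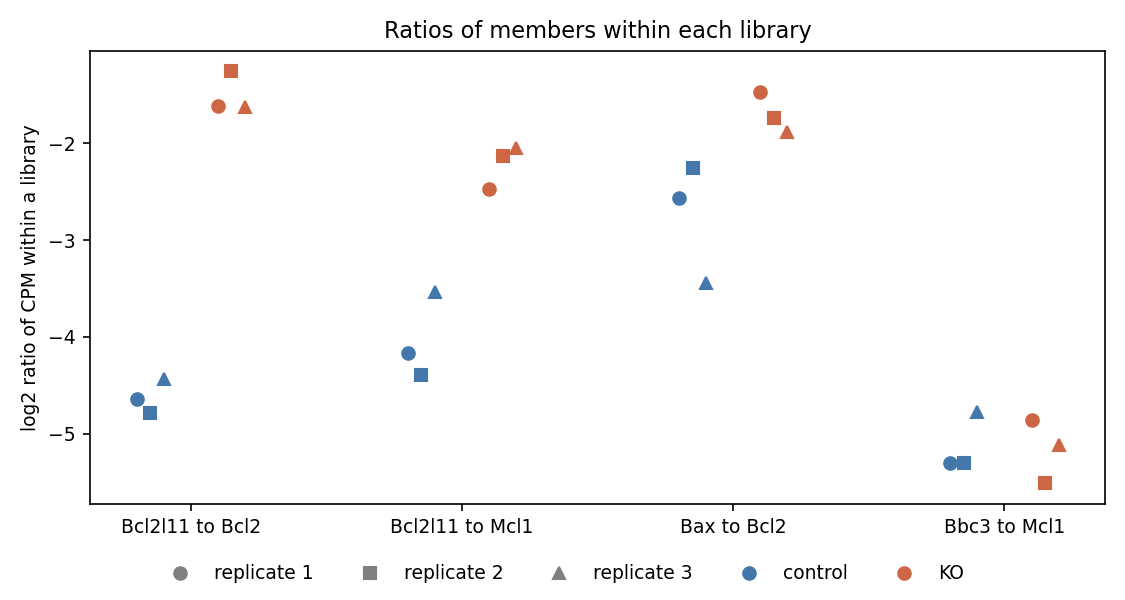
Log2 ratio of the CPM of 2 members within each library (y axis) for 4 pairs of genes, control in blue and KO in orange, with a marker shape for each replicate number. The groups separate for Bcl2l11 to Bcl2, Bcl2l11 to Mcl1 and Bax to Bcl2, and overlap for Bbc3 to Mcl1.

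A list of 16 other genes of the family or named for it gave 13 tested genes, of which 3 were called higher and 5 lower, beside 23.2% and 22.9% of all tested genes. The median log2 fold change was −0.028, beside 0.013 over all tested genes. Bcl2l10, Bcl2a1c and Hrk had at most 11 counts in any library and did not pass the filter. Of the BH3-only genes on this list, Bmf, which binds the antiapoptotic proteins and is linked to the cytoskeleton, changed most. Bmf held 3.89, 4.15 and 5.65 CPM in the controls, and 29.7, 64.3 and 35.5 CPM in KO. All KO libraries were far above control, with KO replicate 2 the highest, as for Bcl2l11. Its log2 fold change was 3.23 (SE 0.312, 95% interval 2.52 to 3.94, edgeR adjusted p = 0.000217), 9.39-fold.

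Bad, a BH3-only gene whose protein is restrained by phosphorylation, rose as well. Its controls gave 11.7, 13.5 and 12.3 CPM and its KO libraries 20.99, 25.1 and 25.1 CPM (log2 fold change 0.92, SE 0.146, edgeR adjusted p = 0.00152), and 20.5% of its exonic bases overlap Gpr137 on the opposite strand. Bik, another BH3-only gene, went the other way from a low level, with 2.43, 2.74 and 3.92 CPM in control and 1.25, 0.748 and 1.37 CPM in KO (log2 fold change −1.46, SE 0.360, edgeR adjusted p = 0.0107). Bok, an effector-like gene, also fell from a low level, with 1.16, 1.34 and 1.40 CPM in control and 0.418, 0.107 and 0.356 CPM in KO (−2.21, SE 0.500, edgeR adjusted p = 0.00724). The groups did not overlap for any of these 3 genes. The called BH3-only genes of both lists were thus 4 higher (Bcl2l11, Pmaip1, Bmf and Bad) and 2 lower (Bid and Bik). Over all tested genes 23.2% were called higher and 22.9% lower. Bbc3 was not called and Hrk was not tested. Bnip3 and Bnip3l, described next, were not counted in this class.

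Bnip3 and Bnip3l, hypoxia-inducible genes of mitophagy receptors, both fell. Bnip3 held 152, 161 and 166 CPM in the controls, and 19.7, 31.6 and 26.0 CPM in KO (log2 fold change −2.63, SE 0.172, edgeR adjusted p = 5.76e-05), and Bnip3l fell from 326 ± 85.8 to 126 ± 17.8 CPM (SD, n = 3; −1.37, edgeR adjusted p = 0.000948). Both share sequence with other genes, 47.2% of the 50-base stretches for Bnip3 and 20.8% for Bnip3l. AC160336.1, the gene that shares most with Bnip3, was lower as well (−2.44, edgeR adjusted p = 0.000114), and the division of reads between them was not tested. Bcl2l12 was also lower (−0.92, edgeR adjusted p = 0.00412), and 33.4% of its exonic bases overlap other genes. The antiapoptotic Bcl2l2, which encodes BCL-W, held 27.7, 23.9 and 33.5 CPM in control and 26.8, 29.5 and 30.6 CPM in KO and was not called (0.028, 95% interval −0.32 to 0.38, edgeR adjusted p = 0.893). Bcl2l13 (−0.028), Bcl2l14 (0.070) and Bcl2l15 (−0.86) were not called either. The sign of Bcl2l2, Bcl2l13 and Bcl2l14 turned under some alternatives.

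**Figure D5:**
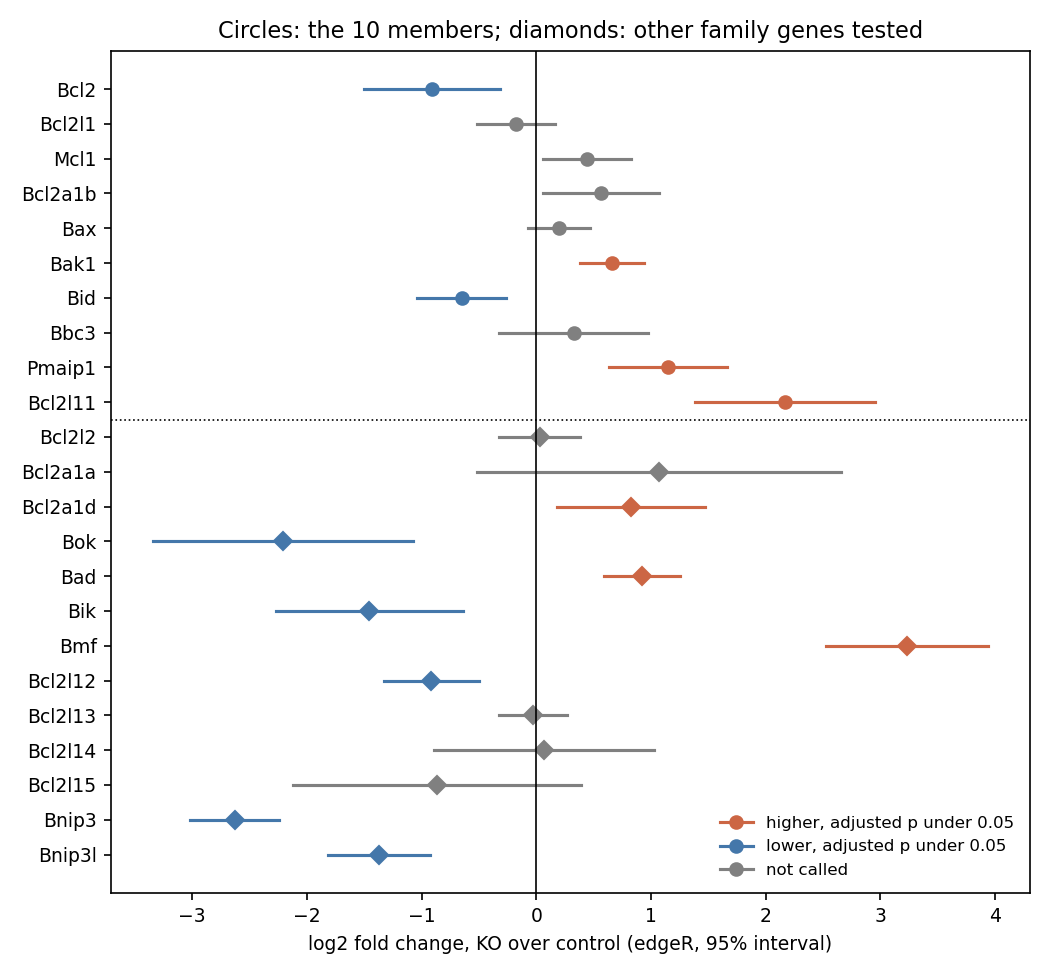
Log2 fold change of KO over control with its 95% interval from edgeR for the 10 members (circles) and the 13 other family genes tested (diamonds), coloured orange where called higher, blue where called lower and grey where not called. Bmf (3.23) and Bcl2l11 (2.17) lie farthest to the right, and Bnip3 (−2.63) and Bok (−2.21) farthest to the left.

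Downstream of the family, a list of 21 genes of the mitochondrial apoptosis pathway gave 2 called higher and 8 lower, with 11 not called and a median log2 fold change of −0.25, where 46.1% of all tested genes were called. Without KO replicate 2 the count was 1 higher and 4 lower. The genes called higher were Birc2 (log2 fold change 0.76, edgeR adjusted p = 0.00623), an inhibitor of apoptosis, and Diablo (0.62, edgeR adjusted p = 0.0145), whose protein antagonises such inhibitors once released from mitochondria. Genes of proteins that mitochondria release in apoptosis did not move together. Besides Diablo, those called were lower: Endog (−1.75, edgeR adjusted p = 0.00225), Htra2 (−0.90, edgeR adjusted p = 0.00211) and Aifm1 (−0.81, edgeR adjusted p = 0.00532). Cycs, which encodes cytochrome c and was added after its value was seen, was not called (0.15, edgeR adjusted p = 0.544). Diablo, Htra2 and Endog overlap other genes over 40.9%, 43.7% and 35.7% of their exonic bases.

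Vdac1, a channel of the outer mitochondrial membrane, fell from a mean of 490.03 to 213 CPM (log2 fold change −1.20, edgeR adjusted p = 0.000489). Vdac2, whose product binds BAK and BAX at that membrane, was called at a smaller size (−0.38, edgeR adjusted p = 0.0444), a call that 8 of 14 alternatives lost. Birc6, a large inhibitor of apoptosis that is also a ubiquitin ligase, was lower (−0.49, edgeR adjusted p = 0.0255), but not without KO replicate 2 (edgeR adjusted p = 0.115), without KO replicate 3 (edgeR adjusted p = 0.0505) or with numbers 1 and 2 alone (edgeR adjusted p = 0.054). Of the other Birc genes on the list, Birc3 (−0.34, edgeR adjusted p = 0.0433) and Birc5 (−1.15, edgeR adjusted p = 0.0174) were also called lower. Both were added after their values were seen, and the groups overlapped for Birc5. Birc3 was not called with numbers 1 and 2 alone (edgeR adjusted p = 0.154). The executioner caspase gene Casp6 was not called (0.52, edgeR adjusted p = 0.248), but was called with the replicate block (0.59, edgeR adjusted p = 0.00336). Casp6 ranged from 0.22 to 0.98 when 1 library was left out, the higher value being without control replicate 3, and called (edgeR adjusted p = 0.0054).

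Of 36 genes listed as regulators of the family, 35 were tested, 6 were called higher and 8 lower, beside 23.2% and 22.9% of all tested genes, and the median log2 fold change was −0.15. Transcription factors known to act on family members moved both ways. Myc (−0.73, edgeR adjusted p = 0.00193), E2f1 (−1.22, edgeR adjusted p = 0.0033) and Atf4 (−1.43, edgeR adjusted p = 0.000401) were lower. The NF-kB subunit genes Rel (0.53, edgeR adjusted p = 0.00985) and Rela (0.52, edgeR adjusted p = 0.0061) were higher, as was Stat5a (0.50, edgeR adjusted p = 0.0213), which lost its call without control replicate 2, without KO replicate 3 and with numbers 1 and 2 alone. Nfkb1, another subunit gene of NF-kB, went the other way (−0.59, edgeR adjusted p = 0.0278). Nfkb1 falls outside the rule for named genes and was added after its value was seen. Stat5b, also added after its value was seen, was not called (−0.34, edgeR adjusted p = 0.0626), though all its KO libraries lay below all control libraries. Trp53, which encodes the activator of Pmaip1 and Bbc3, was not called (−0.20, edgeR adjusted p = 0.274), apart from the fit without control replicate 3 (−0.38, edgeR adjusted p = 0.0419). Foxo1 and Foxo3, forkhead factors known to activate Bcl2l11 and Bbc3, were not called (−0.15 and −0.10, edgeR adjusted p = 0.451 and 0.662), and their sign turned under 1 alternative each. These are transcript levels and give no protein activity.

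Of the 7 cytokine receptor chains on the list, 2 were called higher and 2 lower, beside 23.2% and 22.9% of all tested genes. Il2rb (−0.15), Il6ra (−0.19) and Il21r (0.35), added after their values were seen, were not called. Il7r held 118, 103 and 194 CPM in the controls, and 57.3, 63.4 and 63.7 CPM in KO (log2 fold change −1.17, SE 0.218, edgeR adjusted p = 0.00307). As with Bcl2, control replicate 3 was the highest library and the groups did not overlap. Il2ra was lower (−1.52, edgeR adjusted p = 0.000264), while Il2rg (0.67, edgeR adjusted p = 0.00367) and Il6st (1.43, edgeR adjusted p = 0.000104), the shared chains of the interleukin 2 and interleukin 6 receptor families, were higher. Of the genes for protein turnover, Huwe1, a ubiquitin ligase of MCL1, was lower (−0.67, edgeR adjusted p = 0.00402). Trim17, another ligase reported to act on MCL1, was higher from a low level (1.41, edgeR adjusted p = 0.00688), with 24% of its exonic bases overlapping other genes. Usp9x, outside the rule for named genes and added after its value was seen, was lower (−0.40, edgeR adjusted p = 0.0206). With numbers 1 and 2 alone Usp9x was not called (−0.35, edgeR adjusted p = 0.0725).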

How the data were processed

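The authors deposited whole-number counts per gene symbol for 6 libraries, and the values show no normalization. STAR, featureCounts and DESeq2, without versions, and the build mm10 are named per the submitters' processing notes; the annotation, strand setting and handling of reads that match several genes are not given in the sources used here, and these affect overlapping genes and near-identical copies most. Columns were matched to samples by their description, and groups and replicate numbers were taken from the titles. Counts were tested with edgeR 4.0.16 in R 4.3.3: filterByExpr by group (14268 of 31017 genes, 99.94% of counts), TMM factors, glmQLFit and glmQLFTest of KO against control without a covariate, and Benjamini-Hochberg adjustment over all tested genes. The SE is the absolute log2 fold change over the square root of F. The fit was tested on simulated data. The biological coefficient of variation, the spread beyond counting error, was 0.212. Lengths, overlaps, positions and the share of 50-base stretches found in other genes came from GENCODE M21 (GRCm38), which held 98.2% of the symbols.

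The members and lists were chosen with earlier results of these data known. Named are all members, Rtf1, every tested gene of the other-family list, and from the 2 further lists up to 6 called genes a direction whose groups do not overlap, plus genes that an alternative moved over the threshold or turned. Across genes, deviations from the group mean correlated at 0.270, 0.130 and 0.379 between libraries of equal number. Each was above 0.1, which the rule used reads as pairs, but pairing is not established. Control replicate 2 correlated more with KO replicate 1 (0.204) than with KO replicate 2. Libraries numbered 3 were male in both groups, and a shared sex and pairing cannot be told apart there. Results are from the fit without the replicate block unless the block is named. Alternatives were 3 other scalings (size factors from DESeq2, the upper quartile, library size alone), 2 other filters, the test of DESeq2 1.42.0, the replicate block, each library left out, numbers 1 and 2 alone, and the Bcl2a1 copies summed.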

Additional observations from a re-analysis of the deposited data

How the results depend on the processing

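Over 14 alternatives (15 for Bcl2a1b) no member changed sign, and the calls of Bcl2l11 (log2 fold change 1.91 to 2.66), Pmaip1 (0.96 to 1.39) and Bak1 (0.52 to 0.75) held in each, as did Rtf1. Bcl2l1 (−0.37 to −0.071) and Bax (0.080 to 0.29) were called in none. With 1 library left out, Bcl2 ranged from −1.11 to −0.59, Bid from −0.76 to −0.60, Mcl1 from 0.29 to 0.55 and Bbc3 from 0.11 to 0.67; the number of members called ranged from 3 to 7 and that of mitochondrial pathway genes from 5 to 11. Calls were gained for Mcl1 with the replicate block (0.45), with library size only (0.53) and with numbers 1 and 2 alone (0.64), for Bbc3 with numbers 1 and 2 alone (0.74), and for Bcl2a1b with library size only (0.65) and with its copies summed (0.77). The block changed no other member's call, and over all genes it called 7628 against 6574. For genes close to 0 the sign turned: leaving out 1 library moved Bcl2l2 between −0.096 and 0.11, Bcl2l13 between −0.20 and 0.064, Bcl2l14 between −0.27 and 0.58 and Foxo3 between −0.23 and 0.044. Bcl2l13 was at 0.064 with library size only, and Foxo1 at 0.071 with numbers 1 and 2 alone. The cause was not tested. Numbers 1 and 2 alone, and 3 alone, were compared because the labels give no sex; the values of the number 3 pair and of the ratios without 1 library were added after seeing the data. Depth limits the genes with few counts, among them Bcl2a1a, Bok and Bcl2l15, with as few as 4, 4 and 6 counts in a library.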
